A study of Mus musculus with 13 samples.

Results

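The Hox genes of lumbar motoneurons are described here as all mouse genes whose GENCODE symbol is Hox, a cluster letter from a to d and a paralogue number, with antisense and opposite-strand genes left out. The rule gave 39 genes, and all 39 had a row among the 48709 genes of the count tables. They were measured by RNA sequencing in 13 libraries, each from about 500 motoneurons of 1 mouse, cut out by laser from lumbar spinal cord sections stained with cresyl violet. All mice carried the human SOD1-G93A transgene, a model of amyotrophic lateral sclerosis, and were 65 days old. The AAV-miR SOD1 group (n = 4) had received, in the cerebral ventricles shortly after birth, an adeno-associated virus (AAV) carrying an artificial microRNA against human SOD1 for expression in astrocytes, the AAV-miR ctrl group (n = 5) had received AAV-miR ctrl by the same route, and littermates without injection formed the non-injected group (n = 4). No mice without the transgene and no other level of the cord were among the libraries, so levels are described within lumbar tissue of mutant mice.

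Hox genes encode homeodomain transcription factors and lie in 4 clusters. Within a cluster the paralogue number follows the position along the chromosome, and genes of higher number are expressed further toward the tail of the embryo. In the spinal cord, genes of the middle groups mark the brachial and thoracic cord and the Hox10 genes set the identity of lumbar limb-innervating motoneurons, with Foxp1 as their main partner in sorting motoneurons into columns. Hox proteins bind DNA together with cofactors of the Pbx, Meis and Pknox families, and Polycomb and Trithorax proteins keep their loci closed or open.

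The 39 genes fall in clusters A (11 genes, chromosome 6), B (10 genes, chromosome 11), C (9 genes, chromosome 15) and D (9 genes, chromosome 2), in build GRCm38. Each gene holds a homeobox of 180 bases in its coding sequence, and that stretch is what paralogues share most closely. Over the 42 pairs of members of the same paralogue group the homeoboxes were 80.6% identical in the median (range 67.2 to 93.9), against 61.7% for the 172 pairs of the same cluster with different numbers. Because the levels below differ between paralogues, the homeoboxes of the Hox10 genes are shown, coding strand, from GENCODE M21 transcripts. Capitals mark the bases that are not the same in all members compared, 50 positions among the 3 Hox10 genes.

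Hoxa10: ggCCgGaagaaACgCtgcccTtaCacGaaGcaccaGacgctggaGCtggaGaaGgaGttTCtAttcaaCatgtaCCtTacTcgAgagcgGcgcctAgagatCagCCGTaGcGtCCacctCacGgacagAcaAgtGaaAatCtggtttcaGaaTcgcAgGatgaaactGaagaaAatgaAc
Hoxc10: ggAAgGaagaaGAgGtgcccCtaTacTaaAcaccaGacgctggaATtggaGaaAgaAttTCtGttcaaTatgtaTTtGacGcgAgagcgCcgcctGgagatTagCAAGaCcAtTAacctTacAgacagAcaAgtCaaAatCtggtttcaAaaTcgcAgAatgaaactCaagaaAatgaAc
Hoxd10: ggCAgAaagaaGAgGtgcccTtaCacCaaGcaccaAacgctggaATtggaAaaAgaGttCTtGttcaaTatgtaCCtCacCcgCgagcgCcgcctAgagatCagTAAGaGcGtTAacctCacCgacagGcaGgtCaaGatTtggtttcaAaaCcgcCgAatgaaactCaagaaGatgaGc

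Hoxa10 and Hoxc10 differed at 35 of the 180 bases, Hoxa10 and Hoxd10 at 38, and Hoxc10 and Hoxd10 at 31. These homeoboxes lie at chr6:52232554-52232733 (minus strand), chr15:102970848-102971027 (plus strand) and chr2:74694141-74694320 (plus strand).

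Stretches of 50 bases found in the transcripts of more than 1 Hox gene made up 0.1% or more of the stretches of 3 pairs among the 39 genes: Hoxc5 and Hoxc10 (3.9 and 6.4% of their stretches), Hoxd3 and Hoxd4 (8.1 and 11.3%) and Hoxa6 with Hoxb4 (0.4 and 0.1%). The first 2 pairs have overlapping exons on the same strand. Exons of another annotated gene overlap 16 of the 39 members, on the antisense strand for 10 of them. The overlap takes more than 50% of the exonic bases of Hoxb3 (52.9%), Hoxd3 (62.8%) and Hoxd4 (52.3%), and 20.4% of those of Hoxa7, which lies across the antisense gene Hoxaas3. The library kit does not mark strand and the counting rule for strand is not given in the sources used here, so counts of these 16 members are uncertain.

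The libraries held 13.9 to 37.4 megacounts in genes, and the 39 Hox genes took 0.0239% of these on average. Levels are CPM, counts per megacount of the library after TMM scaling. Summed CPM of 7 motoneuron markers were 1374.5 to 2494.2 in the AAV-miR SOD1 group, 1997.2 to 4533.4 in the AAV-miR ctrl group and 2218.9 to 5263.9 in the non-injected group, and none of the 7 was at 0 in a library. Markers of other cells were also present. In the same order of groups, 6 oligodendrocyte markers summed to 1191.6 to 2732.8, 1136.1 to 4527.1 and 1830.6 to 2812.8 CPM. For 6 astrocyte markers the sums were 439.4 to 526.6, 548.3 to 937.1 and 496.7 to 761.2 CPM. For 6 microglia markers they were 562.0 to 812.6, 317.5 to 988.6 and 204.1 to 550.3 CPM. Erythroid markers (6 of 7 in the tables) summed to 18923.1 to 42967.6, 3105.5 to 25022.5 and 4971.1 to 18241.7 CPM in the same order of groups, 7 neutrophil granule genes to 9673.2 to 28682.6, 5593.4 to 22324.4 and 7092.5 to 9142.4 CPM, and 9 bone and connective tissue genes to 6682.1 to 17491.6, 4969.8 to 26273.2 and 4237.4 to 19396.9 CPM. Of 7 interneuron markers Gad2, Pax2 and Lmx1b were at 0 in some libraries of each group, and the sum was 14.25 to 53.43 CPM over all libraries. The cord had been embedded inside its vertebrae, and Hox genes are also active in bone and blood-forming cells. The data do not tell these sources, or the other cells of the cord, apart from motoneurons. The part of these other cells in the Hox levels was not tested. In 2 libraries, replicate 3 of the AAV-miR ctrl group and replicate 3 of the non-injected one, the column header named another group than the label. The labels were followed, and values with the headers followed or both libraries left out are given for part of the results.

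Of the 39 members, 35 had a count in at least 1 library, 24 in all 13 libraries and 20 reached 3 counts in every library. Levels between genes are compared as CPM per kb of coding sequence. The middle and posterior groups carried nearly all of the Hox level. Paralogue groups 5 to 8 held 64.6% ± 2.06 (SD, n = 13) of the summed CPM per coding kb, groups 9 to 11 held 31.7% ± 2.37, groups 1 to 4 held 3.69% ± 0.972, and groups 12 and 13 held 0.00655%. By cluster, C held 41.9% ± 3.09, A 33.9% ± 1.36, B 14.9% ± 2.14 and D 9.37% ± 1.59 (SD, n = 13). The 6 highest genes, Hoxa7, Hoxc8, Hoxc10, Hoxa9, Hoxc9 and Hoxc5, made up 64.6% ± 3.04.

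**Figure D1:**
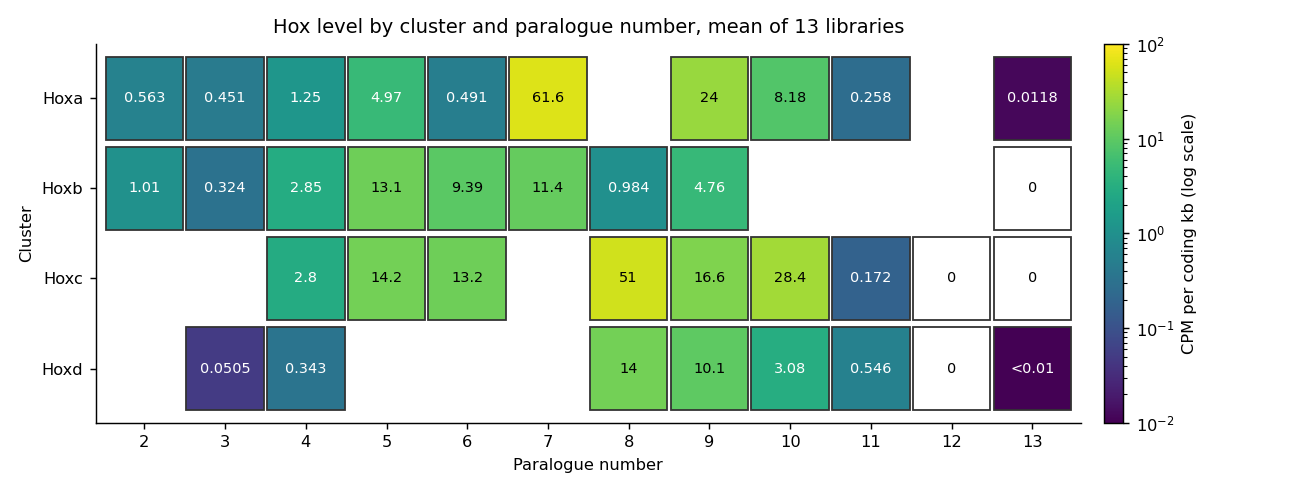
Mean level of the Hox genes of paralogue groups 2 to 13 over the 13 libraries in CPM per coding kb (colour, log scale, with the value printed), by cluster (rows) and paralogue number (columns); blank places hold no gene and white boxes with 0 had no count in any library. High values run from Hoxa7 (61.6) and Hoxc8 (51.0) to the Hox9 genes and Hoxc10 (28.4), and the level drops at paralogue group 11.

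Anterior members, which pattern hindbrain and neck, were low. Hoxb4, the highest of its group, averaged 2.85 CPM per coding kb and Hoxc4 2.80, and Hoxb4 exceeded Hoxc4 in 6 of 13 libraries, so the order of these 2 genes did not hold across libraries. Hoxa4 averaged 1.25 and Hoxb2 1.01. Hoxa2 (0.563), Hoxa3 (0.451), Hoxd4 (0.343), Hoxb3 (0.324), Hoxd1 (0.173), Hoxb1 (0.171) and Hoxd3 (0.0505) were below 1 CPM per coding kb. As group means, in the order AAV-miR SOD1, AAV-miR ctrl and non-injected, Hoxb2 was at 0.823 ± 0.326, 0.948 ± 0.848 and 1.28 ± 1.14 CPM per coding kb (SD; n = 4, 5 and 4), Hoxa3 at 0.331 ± 0.302, 0.505 ± 0.471 and 0.503 ± 0.220, and Hoxb4 at 3.05 ± 0.628, 2.94 ± 0.463 and 2.54 ± 0.857. For each of these 3 genes the groups lay within the spread between libraries. Hoxb1 was uneven in another way. It had 11, 2, 5 and 6 counts in AAV-miR SOD1 replicates 1 to 4, 10 and 7 counts in AAV-miR ctrl replicates 1 and 3, and 0 counts in the other 3 AAV-miR ctrl and all 4 non-injected libraries. It did not pass the filter on low counts and was not tested.

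Groups 5 to 8, which mark brachial and thoracic cord, held the highest genes. Hoxa7 reached 22.7, 38.7, 29.7 and 32.6 CPM in AAV-miR SOD1 replicates 1 to 4, 35.2, 40.3, 38.8, 55.6 and 59.7 in AAV-miR ctrl replicates 1, 3, 4, 5 and 6, and 35.0, 61.6, 54.5 and 46.1 in non-injected replicates 2, 3, 5 and 6. The lowest library was AAV-miR SOD1 replicate 1 and the groups overlapped. Per coding kb the group means were 45.0 ± 9.71, 66.8 ± 15.98 and 71.8 ± 16.7. Hoxa7 was the highest of all 39 genes in 11 of 13 libraries, and Hoxc8 in the other 2.

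Hoxc8, which acts in brachial motoneurons, was at 23.8, 32.0, 24.7 and 36.4 CPM in the AAV-miR SOD1 libraries, 39.7, 32.7, 40.0, 46.6 and 50.2 in AAV-miR ctrl and 27.01, 52.9, 34.8 and 40.2 in non-injected libraries, in the same order of replicates. AAV-miR SOD1 replicates 1 and 3 were lowest, and the groups overlapped. Its group means were 40.2 ± 8.29, 57.6 ± 9.36 and 53.3 ± 15.01 CPM per coding kb.

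In groups 6, 7 and 8, some paralogues were far apart. Hoxb6 exceeded Hoxa6 in 13 of 13 libraries (ratio of means 19.1), while Hoxc6 exceeded Hoxb6 in 11 (ratio 1.4). In group 5, Hoxb5 exceeded Hoxa5 in 13 of 13 libraries (ratio 2.63), and Hoxc5 exceeded Hoxb5 in 7 (ratio 1.09). Hoxa7 exceeded Hoxb7 in 13 of 13 libraries, with a ratio of means of 5.4 and a range of 3.58 to 10.2. Hoxc8 exceeded Hoxd8 in 13 of 13 libraries (ratio of means 3.63), and Hoxd8 exceeded Hoxb8 in 13 of 13 (ratio 14.2). Neighbours on the chromosome also differed: Hoxa6, which lies beside Hoxa7, averaged 0.491 CPM per coding kb and had 99 counts over all libraries, where Hoxa7 had 14069. Hoxa7 exceeded it in 13 of 13 libraries, although their homeoboxes are 88.9% identical. Hoxb6, by contrast, was at 9.39 and Hoxb7 at 11.4.

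Among genes of similar level the order was not fixed. Hoxc5, Hoxd8, Hoxc6 and Hoxb5 averaged 14.2, 14.02, 13.2 and 13.1 CPM per coding kb, and each exceeded the next in 5, 8 and 6 of 13 libraries. Hoxc5 had group means of 10.2 ± 4.25, 15.7 ± 3.42 and 16.5 ± 5.92, Hoxd8 of 11.1 ± 1.52, 14.2 ± 2.78 and 16.8 ± 3.13, Hoxc6 of 10.6 ± 5.51, 14.1 ± 4.42 and 14.6 ± 3.20, and Hoxb5 of 9.77 ± 2.16, 14.05 ± 2.14 and 15.2 ± 3.78. Hoxb7 had 9.82 ± 3.44, 11.2 ± 3.24 and 13.2 ± 2.03, and Hoxb6 7.70 ± 1.28, 9.95 ± 3.88 and 10.4 ± 3.603. All 6 had their lowest group mean in AAV-miR SOD1. Hoxa5 averaged 4.97 and Hoxb8 0.984 over all libraries.

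**Figure D2:**
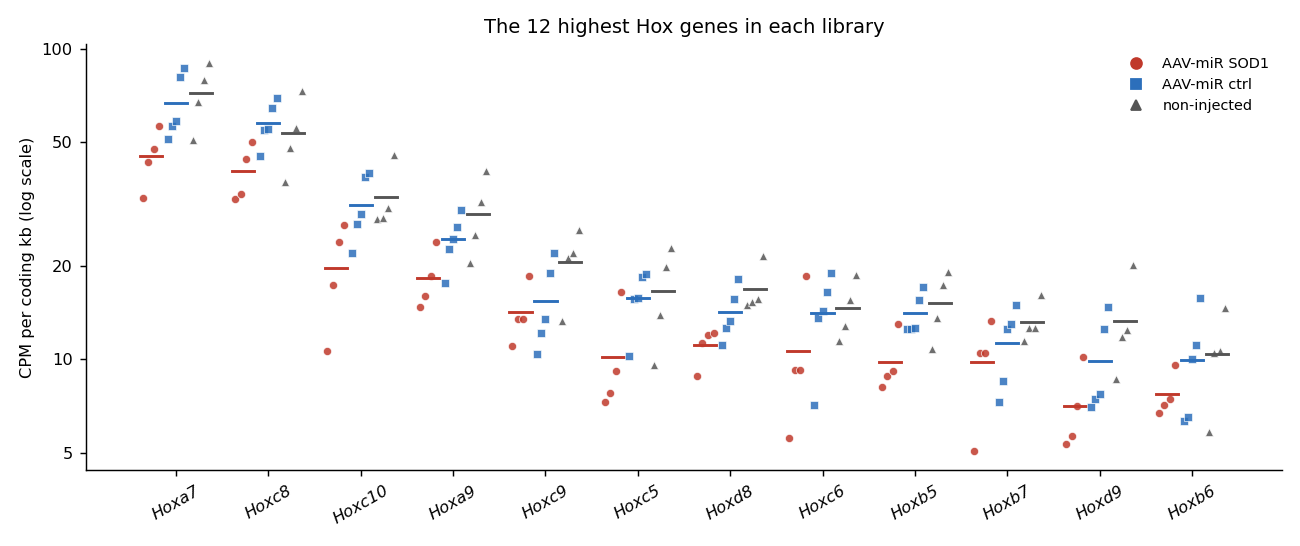
The 12 highest Hox genes in CPM per coding kb (vertical axis, log scale), ordered by their mean over 13 libraries; each point is a library, coloured by group, and the short lines are group means. Hoxa7 and Hoxc8 lead in all groups, and the AAV-miR SOD1 means are the lowest for each of the 12 genes while the points of the groups overlap for most.

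Among the posterior groups, Hoxc10 averaged 28.4 CPM per coding kb and was the highest Hox10 gene in 13 of 13 libraries. It was at 10.9, 17.8, 24.4 and 27.7 CPM in the AAV-miR SOD1 libraries, 22.6, 30.1, 28.0, 39.8 and 40.8 in AAV-miR ctrl and 29.3, 46.8, 29.0 and 31.4 in non-injected libraries. All 4 AAV-miR SOD1 libraries were below all 4 non-injected ones, while AAV-miR SOD1 overlapped AAV-miR ctrl. Per coding kb its group means were 19.7 ± 7.25, 31.4 ± 7.62 and 33.3 ± 8.28. Hoxa10 averaged 8.18 CPM per coding kb and Hoxd10 3.08, and Hoxc10 exceeded Hoxa10 1.96 to 5.79 times in single libraries.

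The Hox9 genes, active in thoracic and lumbar cord, were all detected in every library. Hoxa9 averaged 24.0, Hoxc9 16.6, Hoxd9 10.1 and Hoxb9 4.76 CPM per coding kb. Hoxa9 exceeded Hoxc9 in 11 of 13 libraries and Hoxc9 exceeded Hoxd9 in all 13. Hoxa9 had group means of 18.3 ± 4.08, 24.4 ± 4.71 and 29.4 ± 8.71, Hoxc9 of 14.1 ± 3.16, 15.4 ± 4.87 and 20.6 ± 5.31, and Hoxd9 of 7.06 ± 2.22, 9.88 ± 3.50 and 13.2 ± 4.88. Length matters to part of this order: per kb of all annotated exons Hoxc10 ranked first, Hoxa7 second and Hoxa9 10th, and 11 of the 12 highest genes were the same.

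Beyond group 10 the level dropped. Hoxc10 exceeded Hoxc11 in 13 of 13 libraries with a ratio of means of 165, and Hoxd10 exceeded Hoxd11 in 13 of 13 with a ratio of 5.65. Hoxd11 averaged 0.546, Hoxa11 0.258 and Hoxc11 0.172 CPM per coding kb. The most posterior genes were close to or at 0. Hoxa13 had 4 counts, all in AAV-miR ctrl replicate 1, and Hoxd13 had 1 count, in AAV-miR ctrl replicate 4. Hoxb13, Hoxc12, Hoxc13 and Hoxd12 had 0 counts in all 13 libraries, which allows up to 0.00947 CPM (3 counts of 316.9 megacounts, counting error only).

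Hoxd10 and the Hox11 genes were uneven between libraries. Hoxd10 had 39, 56, 63 and 4 counts in AAV-miR SOD1 replicates 1 to 4, 18, 44, 40, 108 and 97 in the AAV-miR ctrl libraries, and 103, 182, 167 and 66 in the non-injected ones. As CPM it ran from 0.253 in AAV-miR SOD1 replicate 4 to 10.3 in non-injected replicate 3. Its coefficient of variation over the 13 libraries was 79.1%, and that of Hoxc10 was 32.8%. Hoxd11 had 4, 7, 13 and 0 counts in AAV-miR SOD1, 1, 5, 0, 25 and 2 in AAV-miR ctrl, and 18, 50, 49 and 4 in the non-injected libraries. Its group means were 0.280 ± 0.259, 0.2002 ± 0.268 and 1.24 ± 1.14 CPM per coding kb.

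Hoxa11 had a total of 69 counts, of which 32 were in non-injected replicate 2, and Hoxc11 a total of 46, of which 12 were in non-injected replicate 3. Summed over group 11, the level was 0 to 1.08 CPM per coding kb in AAV-miR SOD1, 0.321 to 0.709 in AAV-miR ctrl and 0.182 to 4.05 in non-injected libraries. Non-injected replicates 2, 3 and 5 were above all others and replicate 6 was below 8 of the 9 injected libraries. The header of non-injected replicate 3, the highest of these, named the AAV-miR ctrl group.

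**Figure D3:**
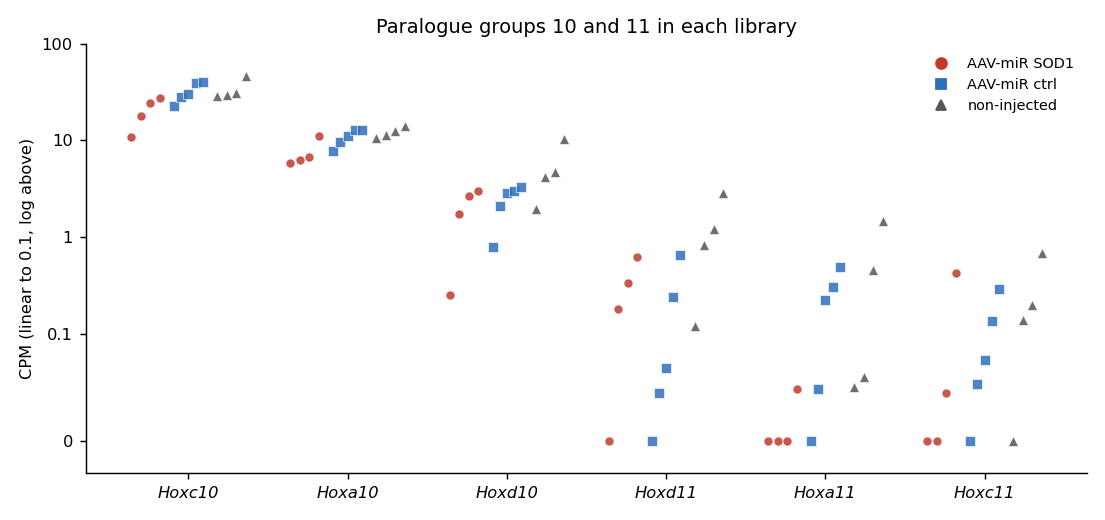
CPM of 6 genes of paralogue groups 10 and 11 in each library (vertical axis linear up to 0.1 and logarithmic above), with points coloured by group. Hoxc10 and Hoxa10 lie above 5 CPM in all 13 libraries, and Hoxd10, Hoxd11, Hoxa11 and Hoxc11 spread widely, with libraries at 0 for the 3 Hox11 genes.

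The 39 genes together summed to 147, 199.5, 190.2 and 199.2 CPM in AAV-miR SOD1 replicates 1 to 4. The sum was 200.3, 235.1, 233.8, 301.9 and 291.2 CPM in AAV-miR ctrl replicates 1, 3, 4, 5 and 6 and 215.3, 338.8, 287.6 and 265.1 CPM in non-injected replicates 2, 3, 5 and 6. The group means were 184 ± 25.0 (SD, n = 4), 252.5 ± 42.8 (SD, n = 5) and 276.7 ± 51.2 (SD, n = 4). No AAV-miR SOD1 library reached a control library, but the nearest pair was close (199.5 against 200.3 CPM). The sum got no test. As a share of all gene counts without TMM scaling the groups overlapped: 0.0154 to 0.0235% in AAV-miR SOD1, 0.0215 to 0.0308% in AAV-miR ctrl and 0.0202 to 0.0340% in the non-injected group. Summed motoneuron markers were also lowest in AAV-miR SOD1 and erythroid markers highest, as given above, and their part in the Hox sum was not tested. In pooled cells, fewer cells of a type and less RNA per cell cannot be told apart.

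The mix of Hox genes was described as shares of the summed level, with no test. Groups 9 to 11 held 30.8% ± 1.56 of the summed CPM per coding kb in AAV-miR SOD1, 30.5% ± 1.43 in AAV-miR ctrl and 34.2% ± 2.33 in non-injected libraries (SD; n = 4, 5 and 4). The non-injected range, 31.6 to 36.3%, overlapped both others. Groups 1 to 4 held 4.51% ± 0.889, 3.68% ± 0.940 and 2.88% ± 0.223. With the labels followed, no non-injected library (2.70 to 3.17%) reached the AAV-miR SOD1 range (3.56 to 5.39%). AAV-miR ctrl replicate 3, whose header named another group, was at 4.47%. With the headers followed, the non-injected and AAV-miR SOD1 ranges therefore overlapped. In CPM, however, groups 1 to 4 summed to 9.245 ± 2.20, 10.26 ± 2.91 and 8.818 ± 1.03. The ranges overlapped (7.34 to 12.4, 6.43 to 13.7 and 7.33 to 9.67 CPM), so the higher share does not show a higher level of these genes. Cluster C held 41.8% ± 3.21, 42.9% ± 2.01 and 40.6% ± 4.33 and cluster D 9.04% ± 1.999, 8.66% ± 1.06 and 10.6% ± 1.28 in the same order.

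**Figure D4:**
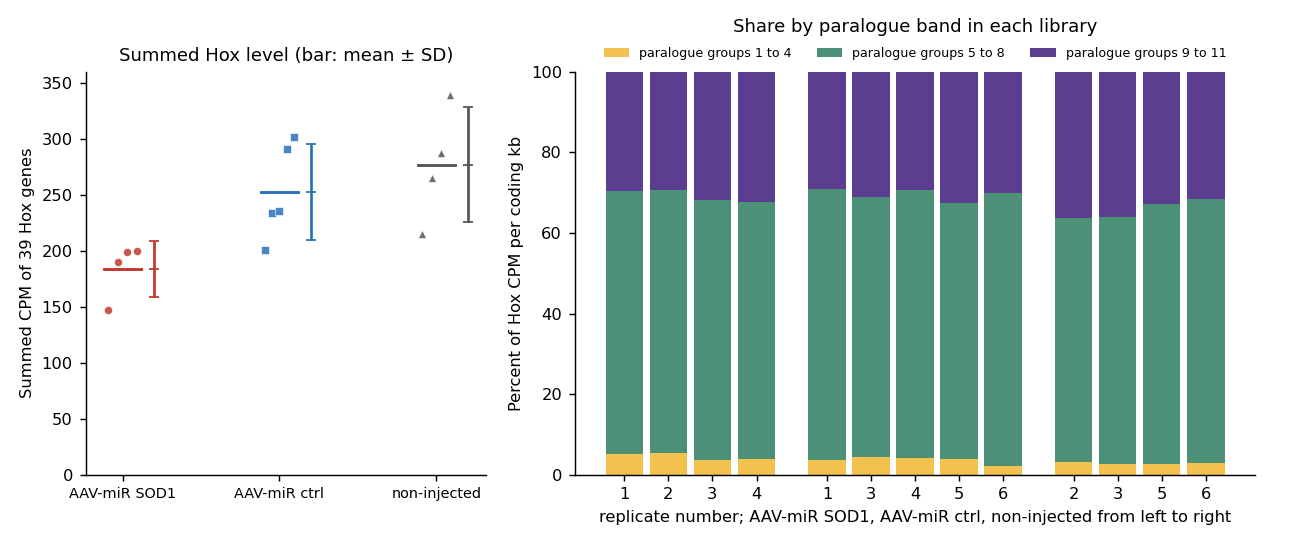
Left, summed CPM of the 39 Hox genes per library (points), with the group mean and SD (bars). Right, percent of the summed CPM per coding kb held by 3 bands of paralogue groups in each library. The 4 AAV-miR SOD1 libraries (147 to 199.5 CPM) lie below the lowest control library (200.3 CPM), the highest of them only just. Groups 9 to 11 hold 29.0 to 36.3% in every library.

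The AAV-miR SOD1 group was first compared with AAV-miR ctrl, the comparison of the vector against human SOD1 with its control vector. None of the 27 members that passed the filter reached the threshold of 0.05 by the edgeR quasi-likelihood test after adjustment (0 of 17403 genes, 0.0%), nor by limma-voom (0.0%), and by DESeq2 none of the 20 members with an adjusted p did (1.2% of 14991 genes). Before adjustment, 5 of 27 members had an edgeR p under 0.05, all lower in AAV-miR SOD1, where 14.5% of all genes had such a p, 8.54% in the lower and 5.99% in the higher direction. The smallest p were those of Hoxa7, with a log2 fold change of -0.57 ± 0.23 (SE; edgeR adjusted p = 0.301), Hoxc10 with -0.68 ± 0.28 (edgeR adjusted p = 0.306) and Hoxc8 with -0.52 ± 0.22 (edgeR adjusted p = 0.315). The other 2 were Hoxb5 (-0.52) and Hoxa10 (-0.54). Over the 27 members the median log2 fold change was -0.35, against -0.04 over all genes tested, and 21 of 27 were below 0, against 53.7% of all genes. No member had groups without overlap in the lower direction, where 2.47% of all genes did.

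The count of 5 changed with single libraries, and so did the count over all genes (2529 of 17403). Without AAV-miR SOD1 replicate 1 there were 0 such members (1192 of 17857 genes), and without AAV-miR ctrl replicate 5 also 0 (1604 of 17241). Without AAV-miR ctrl replicate 6 there was 1 (1591 of 17239). The count was 2 without AAV-miR ctrl replicate 3 (2090 of 17234) and 3 without non-injected replicate 2 (2574 of 17798). With both libraries of contradicting headers left out it was 3 (2314 of 17771). It rose to 6 without AAV-miR ctrl replicate 1 (3986 of 17217) and with the headers followed (3456 of 17403). Libraries numbered 5 and 6 were the deepest and all of them were controls, so library number and group cannot be told apart for these. Among libraries numbered 1 to 4 alone, 1 of 30 tested members had such a p, and 891 of all 18274 genes did. The controls in that fit were AAV-miR ctrl replicates 1, 3 and 4 and non-injected replicates 2 and 3.

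Against the non-injected littermates the vector, the injection and the microRNA differ together. Again 0 of 27 members passed after adjustment in edgeR (0.0% of all genes) and in limma-voom, and 0 of the 18 members with an adjusted p in DESeq2 did, where 7.16% of 14321 genes did. Before adjustment, 8 members had a p under 0.05, all lower, against 20.9% of all genes, 11.5% in the lower and 9.36% in the higher direction. Hoxa7 had a log2 fold change of -0.67 ± 0.24 (SE; edgeR adjusted p = 0.155), Hoxa10 of -0.70 ± 0.26 (edgeR adjusted p = 0.159) and Hoxa9 of -0.69 ± 0.25 (edgeR adjusted p = 0.160). Hoxd8 (-0.60), Hoxd9 (-0.91), Hoxb5 (-0.64), Hoxc10 (-0.76) and Hoxd10 (-1.46) made up the rest. Of these 8, 5 belong to groups 9 and 10. The median over the 27 members was -0.55, against -0.09 over all genes, and 21 of 27 were below 0, against 55.1%.

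Among the 27 tested members, Hoxc10 and Hoxd8 were the 2 whose groups did not overlap, both lower in AAV-miR SOD1. Of all genes tested, 5.8% were lower and 5.9% higher without overlap. These shares do not cover untested members near the floor. Among those, Hoxa11 was lower without overlap (at most 0.0479 CPM in AAV-miR SOD1, at least 0.0499 in non-injected libraries). Its nearest libraries had 1 count (AAV-miR SOD1 replicate 2) and 2 counts (non-injected replicate 5). Hoxb1 was higher without overlap (0.0959 to 0.489 CPM in AAV-miR SOD1, 0 in non-injected libraries). Hoxd8 was at 10.4, 7.67, 10.5 and 9.79 CPM in the AAV-miR SOD1 libraries and at 13.2, 13.5, 18.6 and 12.9 CPM in the non-injected ones, so the highest AAV-miR SOD1 library lay below the lowest non-injected one. Without non-injected replicate 3 the count before adjustment was 3 (2500 of 17871 genes). It was 2 with both libraries of contradicting headers left out (2258 of 17771) and 4 with the headers followed (2567 of 17403). Libraries numbered 1 to 4 include only replicates 2 and 3 of the non-injected group, and replicate 3 has a contradicting header. Among libraries numbered 1 to 4 alone the count was 8 of 30, of which 2 were higher (2863 of 18274 genes). Without the filter it was 10 of 35, of which 1 was higher (4469 of 31373), and with the replicate block 0 (1441 of 17403). This comparison shares its AAV-miR SOD1 libraries with the first, so the similar values of Hoxa7, Hoxa10, Hoxb5 and Hoxc10 in both are not independent.

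The AAV-miR ctrl group was compared with the non-injected group a comparison of vector and injection without the microRNA against human SOD1. edgeR gave 0 of 27 members after adjustment (0.0% of all genes), limma-voom 0 (0.0%) and DESeq2 0 of 27 (0.0115% of 17346 genes). Before adjustment 1 member, Hoxd11, had a p under 0.05 and was lower in AAV-miR ctrl, against 3.61% of all genes, 2.24% in the lower and 1.38% in the higher direction. Its log2 fold change was -2.50 ± 1.06 (SE; edgeR adjusted p = 1.0), from the counts of 0 to 25 against 4 to 50 given above. Hoxd10 had -1.14 ± 0.61 and Hoxc9 -0.42 ± 0.27 (edgeR adjusted p = 1.0 for both). The count was 0 without any 1 of AAV-miR ctrl replicates 1, 3, 4 or 6 or non-injected replicates 3 or 5. It was 2 without AAV-miR SOD1 replicate 4 or non-injected replicate 6. Over all genes it was 516 to 1008 when 1 library was left out. With the headers of the 2 contradicting libraries followed, Hoxd11 and Hoxd10 changed sign, to 0.24 and 0.31. The median over the 27 members was -0.08, against -0.01 over all genes, and 18 of 27 were below 0, against 52.0%. No member had groups without overlap in the lower direction (0.517% of all genes).

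**Figure D5:**
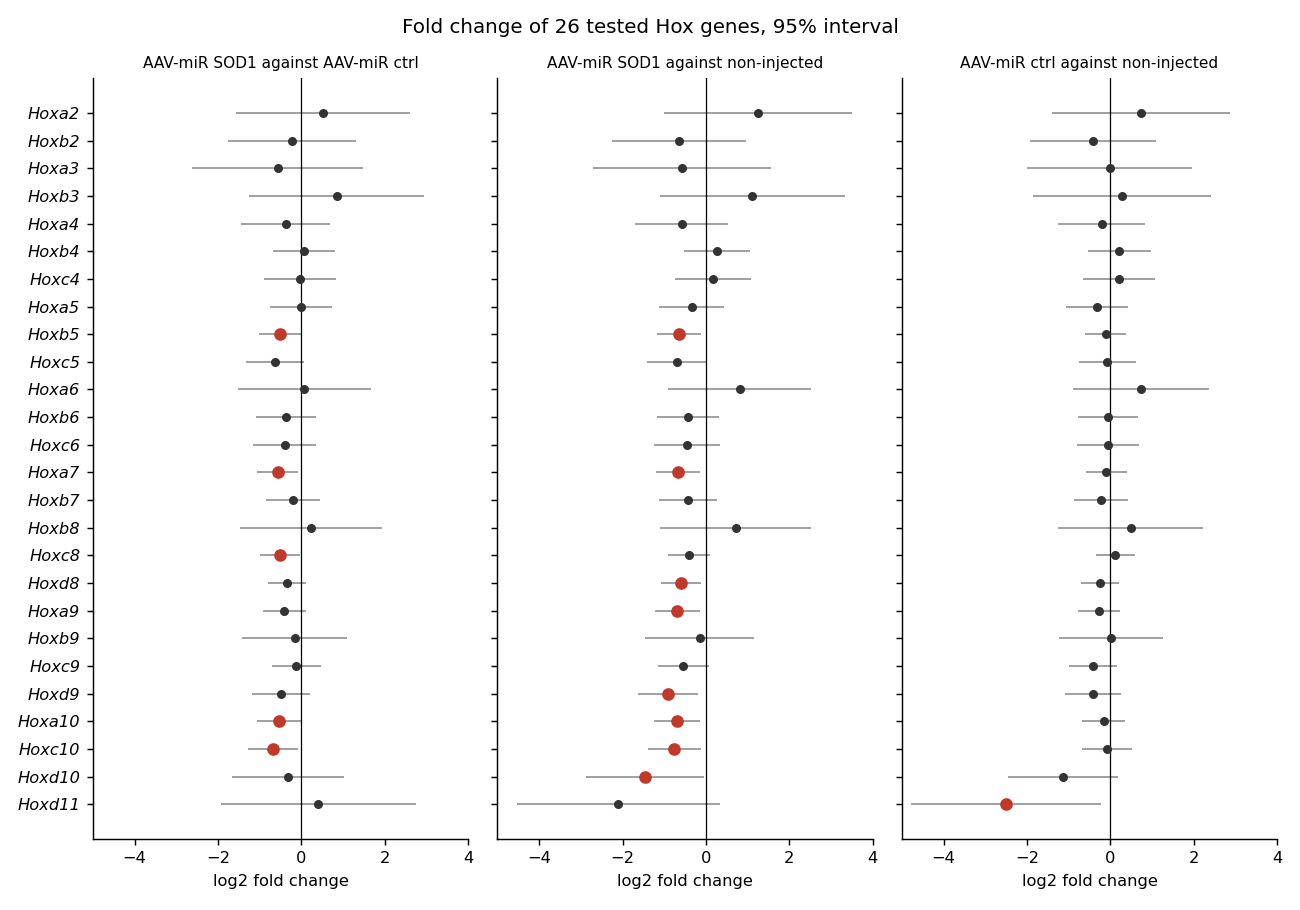
Log2 fold change (horizontal axis) of the 26 tested Hox genes of paralogue groups 2 to 11 with its 95% interval in the 3 comparisons, ordered by paralogue number from top to bottom; red points have an unadjusted p under 0.05 and none had an adjusted p under 0.05. Most points lie left of 0 in both comparisons of AAV-miR SOD1 and intervals are wide for the low genes of groups 2 and 3 and for Hoxd11.

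The 12 members without a test were Hoxa11, Hoxa13, Hoxb1, Hoxb13, Hoxc11, Hoxc12, Hoxc13, Hoxd1, Hoxd3, Hoxd4, Hoxd12 and Hoxd13. By band, 0 of 8 tested members of groups 1 to 4, 3 of 11 of groups 5 to 8 and 2 of 8 of groups 9 to 11 had an unadjusted p under 0.05 in the comparison with AAV-miR ctrl. The median log2 fold changes there were -0.13, -0.37 and -0.37. In the comparison with the non-injected group the counts were 0 of 8, 3 of 11 and 5 of 8, with medians of -0.18, -0.43 and -0.73. Over all genes tested, 14.5% had such a p in the first of these comparisons and 20.9% in the second. The SE of members of groups 1 to 4 ran from 0.349 to 1.05, so their counts of 0 do not show that they did not change.

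For the Hox cofactors, all 9 Pbx, Meis and Pknox genes passed the filter, and 0 of 9 had an unadjusted p under 0.05 in any comparison. Over all genes tested, 14.5% had such a p against AAV-miR ctrl, 20.9% against non-injected and 3.61% between the control groups. Against AAV-miR ctrl the smallest p were those of Meis3 (-0.54 ± 0.26, edgeR adjusted p = 0.363) and Meis1 (-0.60 ± 0.32, edgeR adjusted p = 0.396). Against non-injected they were those of Meis3 (-0.58 ± 0.28, edgeR adjusted p = 0.250) and Pbx2 (0.47 ± 0.24, edgeR adjusted p = 0.290), and between the control groups those of Pbx3 (0.43 ± 0.27) and Meis1 (0.34 ± 0.32), both with an edgeR adjusted p of 1.0.

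Of 12 factors of limb motoneuron identity, 11 were tested and 0 had an adjusted p under 0.05. Foxp1, the Hox partner in limb motoneurons, had 53.5, 39.3 and 36.7 CPM on average in AAV-miR SOD1, AAV-miR ctrl and non-injected libraries. Isl1, a LIM factor of motoneurons, averaged 3.87, 9.29 and 12.5 CPM, and Mnx1, which marks motoneurons, 6.08, 11.4 and 16.03 CPM. Both passed 0.05 before adjustment against AAV-miR ctrl (2 of 11, both lower, against 14.5% of all genes), with log2 fold changes of -1.26 ± 0.51 for Isl1 (edgeR adjusted p = 0.301) and -0.91 ± 0.39 for Mnx1 (edgeR adjusted p = 0.317). Against non-injected, 2 were lower and 1 higher before adjustment (3 of 11, against 20.9% of all genes). The lower ones were Mnx1 at -1.40 ± 0.41 (edgeR adjusted p = 0.140) and Isl1 at -1.68 ± 0.54 (edgeR adjusted p = 0.142). The higher one was Foxp1 at 0.54 ± 0.25 (edgeR adjusted p = 0.23). Between the control groups 0 of 11 had an unadjusted p under 0.05, against 3.61% of all genes. The smallest p were those of Pou3f1 (-1.36 ± 0.85) and Mnx1 (-0.49 ± 0.38).

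All 20 Polycomb and Trithorax genes were tested, and 0 had an adjusted p under 0.05. Before adjustment, 3 were higher and 1 lower against AAV-miR ctrl (4 of 20, against 14.5% of all genes), and 3 were higher against non-injected (3 of 20, against 20.9% of all genes). Ezh2, the Polycomb methyltransferase of dividing cells, averaged 48.1 CPM in AAV-miR SOD1, 23.6 in AAV-miR ctrl and 19.9 in non-injected libraries, with log2 fold changes of 1.03 ± 0.30 (edgeR adjusted p = 0.256) and 1.27 ± 0.32 (edgeR adjusted p = 0.140). Suz12, its partner, had 0.90 ± 0.28 against AAV-miR ctrl (edgeR adjusted p = 0.256), and Jarid2, another partner, 0.74 ± 0.23 against non-injected (edgeR adjusted p = 0.140). Ezh1 averaged 36.3, 43.8 and 41.2 CPM. Erythroid and neutrophil granule markers were also highest in the AAV-miR SOD1 group, and their part in the Ezh2 values was not tested. Between the control groups Jarid2 had 0.61 ± 0.22 and Phc2 -0.63 ± 0.29 (edgeR adjusted p = 1.0 for both), 2 of 20 with an unadjusted p under 0.05, against 3.61% of all genes.

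Noncoding RNAs of the Hox loci were low. Of 10 with a row, 6 were tested and 0 had an unadjusted p under 0.05 in any comparison. Of all genes tested, 14.5, 20.9 and 3.61% had such a p in the 3 comparisons. Hottip, at the posterior end of cluster A, had 0 counts in all libraries, and Hotair, between Hoxc11 and Hoxc12, had 11 counts in total. Hoxd3os1, the highest, ran from 3.18 to 9.01 CPM and had log2 fold changes of -0.36 ± 0.34, -0.69 ± 0.36 and -0.33 ± 0.34 in the 3 comparisons. Hoxb3os had -0.68 ± 0.43 against AAV-miR ctrl and 0.52 ± 0.43 between the control groups, and Hoxb5os had -0.22 ± 0.45 against non-injected. Hoxaas3, which lies antisense to Hoxa7, ran from 0.473 to 2.51 CPM, against 22.7 to 61.6 CPM for Hoxa7.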

How the data were processed

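Motoneurons of 13 mice were measured, 1 library each. Raw read counts per gene were deposited by the authors, made with cutadapt 1.8, STAR 2.5.2b and HTSeq 0.6.1 on GRCm38, per the submitters' processing notes. The gene annotation release and strand setting are not given in the sources used here. Rows that name no gene (47.0 to 61.6% of each table, 42.3 to 56.8% as reads aligned to several places) were left out. Depth was 13.9 to 37.4 megacounts, at which 3 counts correspond to 0.0802 to 0.216 CPM.

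Symbols, exons, coding lengths and homeoboxes came from GENCODE M21 (GRCm38). Coding lengths had been planned from RefSeq and were taken from GENCODE M21 instead. The Hox genes and all lists were chosen with earlier results of these data known. Levels were to be given for the 12 highest members and the highest of each cluster and paralogue group, fold changes for members with an adjusted p under 0.05 or else the 3 with the smallest p in each comparison, and 2 genes per list and comparison. Other genes were named after their values were seen. Some items are not reported here.

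Genes were kept by filterByExpr (minimum count 10, minimum total 15), which left 17403, and scaled by TMM. The test was the quasi-likelihood F test of edgeR 4.0.16 in R 4.3.3 on all 13 libraries with 3 groups (10 residual degrees of freedom, common biological coefficient of variation 0.47), with Benjamini-Hochberg adjustment over all genes and a threshold of 0.05. The fits were tested on simulated counts. DESeq2 1.42.0, limma-voom (limma 3.58.1), other scalings and filters, header exchange and leaving out each library were alternatives. The labels name no separate cultures or litters, but each library is 1 mouse. No 2 libraries were copies, since the lowest chi-square per gene between 2 of them was 35.8.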

Additional observations from a re-analysis of the deposited data

Results flagged for a closer look

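The highest or lowest library of each group was set against the others with Dixon's critical values (0.829 for 4 samples, 0.71 for 5) for 27 tested Hox genes and the summed Hox level, 84 groups in all. Chance flags about 1 in 20 groups, or 4.2 of 84, and 2 stood out. Hoxc10 in non-injected replicate 3 was at 46.8 CPM, with the other 3 non-injected libraries at 29.0 to 31.4 CPM. The header of this replicate named the AAV-miR ctrl group. Hoxd8 in non-injected replicate 5 was at 18.6 CPM, with the other 3 at 12.9 to 13.5 CPM. Both are the tested Hox genes whose AAV-miR SOD1 and non-injected libraries did not overlap.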

How the results depend on the processing

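No Hox gene had an adjusted p under 0.05 in any of the 24 alternatives of any comparison, including the 13 that leave out 1 library each. Over all genes edgeR gave 0 in each comparison, and DESeq2 gave 180 for AAV-miR SOD1 against AAV-miR ctrl, 1025 for AAV-miR SOD1 against non-injected and 2 for the control groups. The 16 log2 fold changes with the smallest p took 383 values under alternatives, none with an adjusted p under 0.05, and 2 changed sign: with the headers followed, Hoxd11 was 0.239 and Hoxd10 0.314 in AAV-miR ctrl against non-injected. Counts of Hox genes at an unadjusted p under 0.05 ranged over leaving out each library from 0 to 6, 3 to 10 and 0 to 2. Those of all genes ranged from 1192 to 3986, 2431 to 4146 and 516 to 1008. With the replicate block the Hox counts were 2, 0 and 1, and those of all genes 1535, 1441 and 465 of 17403. Deviations of same-numbered libraries from their group means had correlations of -0.189 to 0.243. With 2 or 3 such pairs per comparison and no reference from other pairs, these cannot decide whether the numbers pair the mice.

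Leaving out each library in turn, the summed Hox level was 178.8 to 196.3 CPM in AAV-miR SOD1, 240.1 to 265.5 in AAV-miR ctrl and 256 to 297.2 in non-injected. With the headers followed, the AAV-miR ctrl mean was 273.2 CPM and lay above the non-injected mean. The order of the control groups in the summed level therefore depends on the labels of the libraries with contradicting headers. The share of groups 9 to 11 was 30.2 to 31.3%, 29.9 to 30.8% and 33.5 to 35.0%. Without members overlapped by an antisense gene, Hoxa7 among them, the sums were 141.7, 190.3 and 210.2 CPM and the shares 40.9, 41.5 and 46.2%. Without the 3 highest genes (added after seeing the data) the sums were 103.7, 132.5 and 154.6 CPM. With no length correction the shares were 36.0, 36.1 and 40.0%, and per kb of all annotated exons (added after seeing the data) 35.9, 36.8 and 40.6%. Depth limits the low genes: 3 counts in a library stand for up to 0.216 CPM, which is above the mean of Hoxc11, Hoxd1, Hoxb1 and Hoxd3.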
